A study of Mus musculus with 15 samples.

Results

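Fc receptors bind the constant part of antibodies and link them to the killing, engulfing and signalling machinery of myeloid cells. The activating IgG receptors FcγRI (Fcgr1), FcγRIII (Fcgr3) and FcγRIV (Fcgr4) depend on the Fc receptor γ chain (Fcer1g). This small membrane adaptor has a tail that carries an immunoreceptor tyrosine-based activation motif (ITAM). DAP12 (Tyrobp) is another such adaptor and serves, among others, the lipid-sensing receptor TREM2 (Trem2). Src family kinases phosphorylate the ITAM, the kinase Syk docks on it, and the signal passes on to phospholipase Cγ, PI3 kinase and calcium. FcγRIIb (Fcgr2b) binds the same antibodies but carries an inhibitory motif and recruits the phosphatase SHIP1. C/EBPα and C/EBPβ, encoded by Cebpa and Cebpb, are transcription factors of the granulocyte and monocyte lineages.

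The 8 genes Fcgr1, Fcgr2b, Fcgr3, Fcgr4, Fcer1g, Tyrobp, Trem2 and Syk were picked out by symbol from the 53379 genes of the deposited RNA-seq table. All 8 were among the 12673 genes that passed the filter on low values, at least 10 normalized reads in at least 3 of the 15 libraries. The libraries came from mouse fetal liver hematopoietic progenitors that had been immortalized with a retrovirus carrying the leukemia fusion gene MLL-ENL, cloned and grown in mouse IL-3 (10 ng/ml). WT lines are labelled wild-type and, by the methods of the study, descend from Cebpa fl/fl Cebpb fl/fl animals with their floxed alleles unrecombined. The dKO lines lack Cebpa and Cebpb after treatment with cell-permeable TAT-Cre and carry a GFP vector, and LAPS lines are dKO cells that express GFP and the long rat C/EBPβ isoform LAP*. Lines of clone C1 (WT, dKO and LAPS) and of clone C2 (WT and dKO) trace back to different mice, and each of the 5 groups holds 3 libraries. Each dKO line is a clone that grew out of a pool of partly deleted clones after a further round of Cre, so a change in dKO cells cannot be told apart from a property of the surviving clone. RNA was taken from each line at 3 time points, so that p-values measure the spread between samples of 1 line and not between independently deleted clones.

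The libraries held 9212237 to 13613500 reads on genes. Cebpa and Cebpb had 0 reads in every dKO library, which allows up to 3 reads per library, against 1101 ± 292 and 1454 ± 90.7 normalized reads (SD, n = 3) in C1 WT cells and 1963 ± 307 and 1467 ± 148 in C2 WT cells. The LAPS libraries had 3106 ± 961 normalized reads on Cebpb, and the share that came from the rat transgene was not tested. Cebpe, encoding the related factor C/EBPε, rose in the dKO cells of both clones by 2.37 and 2.10 on the log2 scale (limma adjusted p = 8.0e-11 and 3.6e-10). Among markers of other lineages, the T and NK cell genes Ncr1 and Cd8a, the hemoglobin gene Hba-a1, the liver gene Alb and Fcer1a, the IgE-binding chain of the mast cell Fc receptor, were at or near 0. Other genes of the same lists were present, such as Afp (130 normalized reads on average in C2 WT cells), Itga2b (213 in C1 dKO cells) and the mast cell protease Cpa3 (1455 in C1 dKO cells). Ly6c2 (27913 ± 5050.5 normalized reads in C1 WT cells) and S100a8 (12771 ± 2105), which mark monocytes and granulocytes, were abundant.

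The promoter windows of 3 genes are shown because these genes moved in different directions after the deletion in C1: Fcgr1 and Fcgr4 fell and Fcgr3 rose. They are RefSeq sequences (build GRCm38.p6) of up to 250 bases before the transcription start, written 5′ to 3′ on the strand of the gene and cut where the GENCODE vM21 annotation has an exon. Capitals mark matches on either strand to the C/EBP motif TTGCNNAA, its looser form TTNNGNAA, the core GAGGAA bound by PU.1 and other ETS factors, or the STAT motif TTCNNNGAA. The C/EBP patterns overlap each other and the ETS core where they share letters, and a match on the other strand reads as its reverse complement, TTCCTC for GAGGAA. RefSeq gives Fcgr3 more than 1 start, and both lie inside the longer GENCODE gene.
Fcgr1, chr3:96293970-96294219, minus strand: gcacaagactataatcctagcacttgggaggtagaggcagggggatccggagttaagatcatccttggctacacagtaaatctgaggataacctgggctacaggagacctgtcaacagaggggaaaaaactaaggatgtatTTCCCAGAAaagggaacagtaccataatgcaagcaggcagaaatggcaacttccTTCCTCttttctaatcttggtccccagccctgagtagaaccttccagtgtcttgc
Fcgr4, chr1:171018676-171018919, plus strand: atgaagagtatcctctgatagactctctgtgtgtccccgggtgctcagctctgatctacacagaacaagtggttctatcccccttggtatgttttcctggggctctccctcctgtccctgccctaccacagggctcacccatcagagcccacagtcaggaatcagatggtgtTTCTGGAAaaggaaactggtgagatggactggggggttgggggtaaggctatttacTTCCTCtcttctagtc
Fcgr3, chr1:171059404-171059626, minus strand: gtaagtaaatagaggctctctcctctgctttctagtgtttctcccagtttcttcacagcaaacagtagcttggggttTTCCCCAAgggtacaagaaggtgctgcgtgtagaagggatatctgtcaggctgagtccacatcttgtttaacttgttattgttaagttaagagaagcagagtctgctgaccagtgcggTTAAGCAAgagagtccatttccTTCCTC
The Fcgr1 window held the ETS core from -55 to -50 and the STAT motif from -109 to -101, counted back from the start, and neither C/EBP pattern. The Fcgr4 window held the looser C/EBP pattern from -78 to -71 and the ETS core from -22 to -17. The Fcgr3 window held the stricter C/EBP pattern from -28 to -21, the looser one there and from -146 to -139, and the ETS core from -6 to -1, all counted from its first start. From its other start the stricter pattern lies at -37 to -30, the looser one there and at -155 to -148, and the ETS core at -15 to -10. Of 7 genes with a RefSeq promoter entry, Fcgr2b and Fcer1g had no match in their 250 bases, Trem2 had the ETS core, and Syk had matches only at its second start. In 27025 promoter windows of the same length, TTGCNNAA occurred in 9.55%, TTNNGNAA in 36.9%, GAGGAA in 23.1% and TTCNNNGAA in 7.18%. A match is a run of letters and not a measured binding site.

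Fcgr1 (chromosome 3, 96282909 to 96293969, minus strand, mm10), the high-affinity IgG receptor CD64 of monocytes and macrophages, had the widest range of the 8 genes. It had 1199, 976 and 541 normalized reads in the 3 C1 WT libraries and 113, 126 and 146 in the C1 dKO libraries. In C2 it had 1.0, 2.1 and 0.92 normalized reads in WT cells and 48.1, 65.1 and 68.7 in dKO cells. The groups did not overlap in either clone, and the direction was opposite: down in C1 and up in C2. The log2 difference between dKO and WT cells was -2.74 (SE 0.26, limma adjusted p = 6.7e-07) in C1, a 6.69-fold lower level. In C2 it was 4.74 (SE 0.26, limma adjusted p = 1.6e-09), but with 4 reads in the WT libraries together this value ran from 3.36 to 5.54 over the alternative settings. By reads alone the C2 ratio of dKO to WT was 46.3, with a 95% counting interval of 17.8 to 172. The test of the difference between the clones gave 7.48 on the log2 scale (SE 0.37, limma adjusted p = 2.1e-09). Resting on the same 4 reads, it ran from 6.07 to 8.35 over the alternative settings. Both dKO lines thus lay between the WT lines in Fcgr1 level, at 128 ± 16.3 in C1 and 60.6 ± 11.0 in C2.

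Fcgr4 (chromosome 1, 171018920 to 171029761, plus strand), the activating receptor for IgG2a and IgG2b, had 537, 579.9 and 371 normalized reads in C1 WT cells and 147, 173 and 165 in C1 dKO cells. These groups did not overlap, and the level fell by 1.59 on the log2 scale (SE 0.21, limma adjusted p = 2.1e-05), which is 3.00-fold. In C2 it had 124, 204 and 199.7 normalized reads in WT cells and 167, 108 and 109 in dKO cells, and the groups overlapped. The C2 log2 difference of -0.45 (95% interval -0.90 to -0.0037, limma adjusted p = 0.11) did not pass the test, although it did without WT library 1 of C2 (-0.68, adjusted p = 0.017) or dKO library 1 of C2 (-0.66, adjusted p = 0.026). The effects of the deletion differed between the clones by 1.14 (SE 0.30, limma adjusted p = 0.0090). In bulk RNA, fewer cells of a type and less RNA per cell cannot be told apart.

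Fcgr3 (chromosome 1, 171051174 to 171064935, minus strand), the low-affinity activating receptor CD16, went the other way. It had 2321, 2527 and 2502 normalized reads in C1 WT cells and 3099, 3191 and 3172 in C1 dKO cells. In C2 it had 1944, 2251 and 1931 in WT cells and 3295, 3063 and 3321 in dKO cells. Every dKO library lay above every WT library, with log2 differences of 0.37 in C1 (SE 0.08, limma adjusted p = 0.0016) and 0.66 in C2 (SE 0.08, limma adjusted p = 7.2e-06). The difference between the clones was 0.30 (95% interval 0.063 to 0.53, limma adjusted p = 0.054), which missed the threshold. It passed in a fit of the groups compared alone (adjusted p = 0.043), in DESeq2 (0.046), and without WT library 1 of C1 (0.049), LAPS library 1 (0.043) or 2 (0.038), WT library 2 of C2 (0.020) or dKO library 2 of C2 (0.044).

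Fcgr2b (chromosome 1, 170958617 to 170976547, minus strand), the inhibitory receptor CD32b, rose alongside Fcgr3. It had 1707, 2172 and 1649 normalized reads in C1 WT cells, 2569, 2675 and 2446 in C1 dKO cells, 1244, 1194 and 1015 in C2 WT cells and 2616, 2129.7 and 2494 in C2 dKO cells. The dKO libraries lay above the WT libraries in both clones without overlap. The log2 difference was 0.49 in C1 (SE 0.11, limma adjusted p = 0.0028) and 1.07 in C2 (SE 0.11, limma adjusted p = 2.2e-06), and the rise was larger in C2 by 0.58 (limma adjusted p = 0.011, but 0.062 after quantile normalization). Fcgr2b and Fcgr3 share sequence: 92 of the 76-base words of their transcripts, the read length used, occur in both, which is 5.31% of the words of Fcgr3. Over all genes and both strands, 311 words of Fcgr2b (5.39%) occur in another gene. They include 124 in Cplx2, 116 in Gm47409, 89 in Rab3c, 81 in Gm38204 and 49 in Emp2. Fcgr2b also overlaps an exon of the antisense gene Gm38204, which had at most 4.29 normalized reads in any library.

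**Figure D1:**
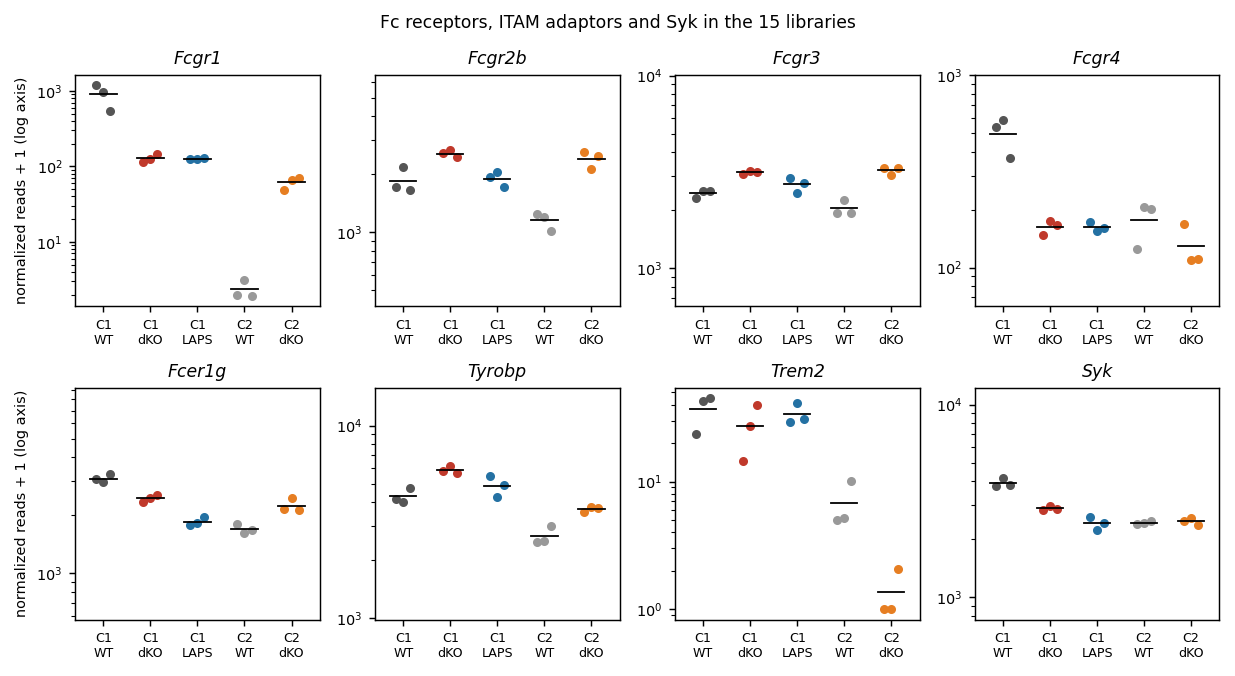
Normalized reads plus 1 (log axis) of the 8 genes in the 15 libraries; each point is 1 library, each bar the mean of 3, and the axes differ between panels. Fcgr1 stood highest in C1 WT cells (541 to 1199 normalized reads) and lowest in C2 WT cells (0.92 to 2.1), while Fcgr2b and Fcgr3 were higher in dKO than in WT libraries of both clones.

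The make-up of the Fcγ receptor transcripts was followed as each gene's share of the 4 receptors' normalized reads per kb of exon. Reads were divided by length to compare levels of different genes. The length merged the exons of all annotated transcripts: 2589 bases for Fcgr1, 5790 for Fcgr2b, 1736 for Fcgr3 and 1256 for Fcgr4. Transcripts shorter than the merged exons would be understated. The lengths expressed in these cells were not tested, so shares and ratios hold for these lengths only. In C1 WT cells Fcgr3 made up 57.4% ± 6.31 (SD, n = 3), Fcgr4 15.8% ± 2.24, Fcgr1 13.9% ± 4.50 and Fcgr2b 12.8% ± 1.18. In C1 dKO cells Fcgr3 made up 74.5% ± 0.543 and Fcgr2b 18.2% ± 0.717, while Fcgr4 and Fcgr1 held 5.28% ± 0.333 and 2.03% ± 0.247. The C2 WT cells had a Fcgr3 share of 77.6% ± 0.634, with Fcgr1 at 0.0334% ± 0.0133, and the C2 dKO cells had Fcgr3 at 77.5% ± 1.43 and Fcgr1 at 0.981% ± 0.207. The 3 activating receptors together outnumbered Fcgr2b by 6.83 ± 0.719 to 1 in C1 WT cells and by 4.51 ± 0.223 in C1 dKO cells. In C2 the same ratio was 6.67 ± 0.866 in WT cells and 4.78 ± 0.288 in dKO cells. The dKO libraries lay below the WT libraries in this ratio without overlap in each clone, from 4.38 to 4.77 against 6.12 to 7.55 in C1 and from 4.54 to 5.10 against 5.68 to 7.25 in C2. In LAPS cells it ranged from 4.48 to 5.94, below all C1 WT libraries and overlapping the dKO range.

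**Figure D2:**
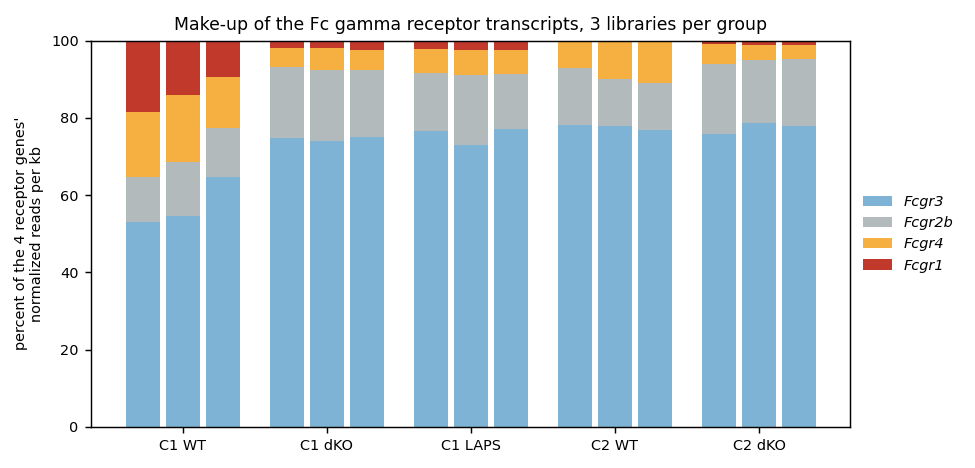
Share of Fcgr3, Fcgr2b, Fcgr4 and Fcgr1 in the normalized reads per kb of the 4 receptor genes together (percent), 1 bar per library, 3 libraries per group. The Fcgr1 share was 9.37% to 18.4% in C1 WT libraries and at most 2.48% in every other library.

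Fcer1g (chromosome 1, 171229572 to 171234365, minus strand), the adaptor that FcγRI, FcγRIII and FcγRIV share, had 3080.1, 2964 and 3266 normalized reads in C1 WT cells and 2332, 2468 and 2536 in C1 dKO cells. In C2 it had 1799, 1613 and 1681 in WT cells and 2148, 2457 and 2132 in dKO cells. The groups did not overlap, and the directions were opposite. It fell by 0.34 on the log2 scale in C1 (SE 0.07, limma adjusted p = 0.0015) and rose by 0.40 in C2 (SE 0.07, limma adjusted p = 0.00042), and these effects differed by 0.75 (SE 0.10, limma adjusted p = 6.1e-05). The ratio of Fcer1g to the 3 activating receptors per kb was 1.66 ± 0.232 in C1 WT, 1.40 ± 0.0349 in C1 dKO, 1.49 ± 0.213 in C2 WT and 1.30 ± 0.172 in C2 dKO cells. The WT and dKO ranges of this ratio overlapped in C2 but not in C1.

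Tyrobp (chromosome 7, 30413760 to 30417585, plus strand), the DAP12 adaptor, had the highest level per kb of the 8 genes in every group, at 6461 ± 573 normalized reads per kb in C1 WT cells. It had 4179, 4010.0 and 4740.2 normalized reads in C1 WT cells and 5838, 6197 and 5707 in C1 dKO cells. The C2 values were 2489, 2506 and 3007 in WT cells and 3543, 3786 and 3752 in dKO cells. The dKO libraries were all above the WT libraries of their clone, with log2 differences of 0.46 in C1 (SE 0.10, limma adjusted p = 0.0015) and 0.47 in C2 (SE 0.10, limma adjusted p = 0.0012). The difference between these effects was 0.02 (95% interval -0.28 to 0.31, limma adjusted p = 0.95). Per kb, Tyrobp exceeded Fcer1g by 1.82 ± 0.0732 to 1 in C1 WT and 3.17 ± 0.194 to 1 in C1 dKO cells, and by 2.06 ± 0.266 and 2.16 ± 0.143 to 1 in C2 WT and dKO cells.

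Trem2 (chromosome 17, 48346401 to 48354147, plus strand), the Tyrobp-paired receptor known from microglia and tissue macrophages, was low throughout. It had 22.8, 41.5 and 43.8 normalized reads in C1 WT cells and 13.6, 26.2 and 38.8 in C1 dKO cells, which overlapped (log2 difference -0.51, 95% interval -1.42 to 0.41, limma adjusted p = 0.38). In C2 it had 3.98, 4.19 and 9.16 in WT cells and 0, 0 and 1.07 in dKO cells, a log2 difference of -2.33 (SE 0.43, limma adjusted p = 0.00048). Over the alternative settings it ran from -4.59 to -0.98. That comparison rests on 18 reads against 1, a ratio of WT to dKO of 17.2 with a 95% counting interval of 2.72 to 717. The test between the clones (-1.82, limma adjusted p = 0.033, from -4.06 to -0.55 over the alternative settings) was lost with a pseudocount of 5 (adjusted p = 0.38), without the filter (0.077), after quantile normalization (0.072), in a fit of the groups compared alone (0.054) and without any of 6 single libraries: WT library 1, dKO library 2 or dKO library 3 of C1, WT library 3 of C2, and dKO library 1 or 2 of C2, with adjusted p up to 0.093.

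Syk (chromosome 13, 52583173 to 52648792, plus strand), the kinase that docks on phosphorylated ITAMs, had 3777, 4165 and 3826 normalized reads in C1 WT cells and 2843, 2969 and 2882 in C1 dKO cells. The C2 values were 2391, 2434 and 2482 in WT cells and 2486, 2571 and 2374 in dKO cells. It fell in C1 without overlap, at a log2 difference of -0.44 (SE 0.07, limma adjusted p = 7.6e-05). In C2 the groups overlapped, at a log2 difference of 0.02 (95% interval -0.12 to 0.16, limma adjusted p = 0.81). The effects differed by 0.46 (SE 0.09, limma adjusted p = 0.0015).

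Over the 8 genes, 3 rose (Fcgr2b, Fcgr3 and Tyrobp) and 4 fell (Fcgr1, Fcgr4, Fcer1g and Syk) in the dKO cells of C1, where 17.1% of all genes tested rose and 19.9% fell. In C2, 5 rose (Fcgr1, Fcgr2b, Fcgr3, Fcer1g and Tyrobp) and 1 fell (Trem2), where 17.4% of all genes rose and 20.1% fell. The median log2 difference of the 8 genes was -0.39 in C1 and 0.44 in C2, and that of all genes tested was -0.01 and -0.03. After quantile normalization the calls over all genes in C1 split into 2681 higher and 2052 lower, against 2170 and 2516, and the 8 genes kept their directions. The effect of the deletion was higher in C2 than in C1 for 5 genes (Fcgr1, Fcgr2b, Fcgr4, Fcer1g and Syk) and lower for 1 (Trem2), beside 15.1% and 14.3% of all genes. Fcgr2b, Fcgr3 and Tyrobp rose in the dKO cells of both clones, and no gene of the 8 fell in both.

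**Figure D3:**
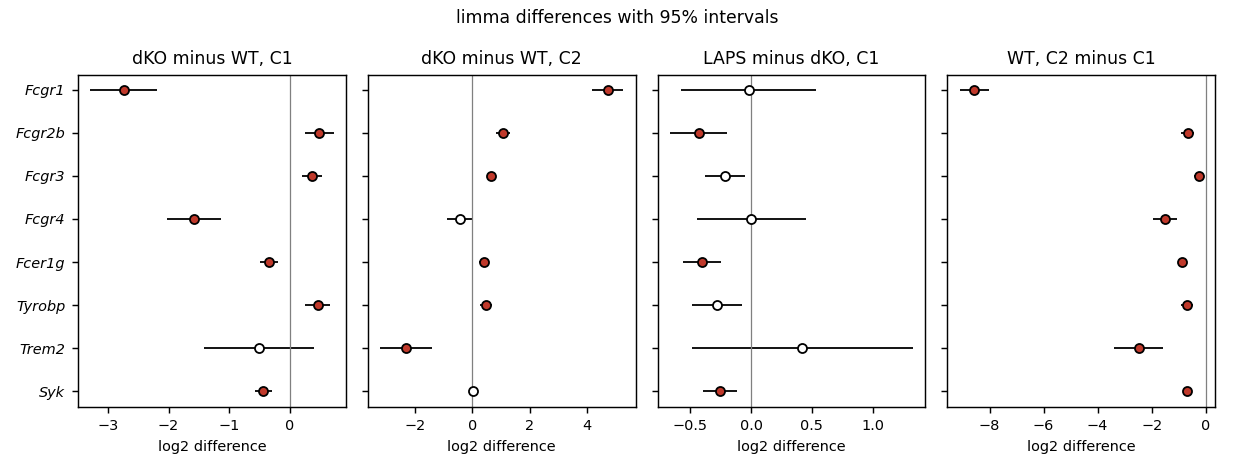
Log2 differences of the 8 genes from limma, with 95% intervals, in 4 comparisons; filled points passed an adjusted p of 0.05, and the horizontal axes differ. Fcgr1 lay at -2.74 in C1 and at 4.74 in C2, and all 8 genes were lower in the WT cells of C2 than of C1.

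The WT lines themselves differed. All 8 genes were lower in C2 WT than in C1 WT cells, where 21.3% of all genes tested were lower and 19.7% higher. The median log2 difference of the 8 genes was -0.78, and that of all genes was -0.01. Fcgr1 showed the widest gap, with 2509 reads in C1 against 4 in C2, a ratio of 674 with a 95% counting interval of 263 to 2476. The log2 difference was -2.48 for Trem2 (limma adjusted p = 0.00022), -1.50 for Fcgr4 (2.9e-05) and -0.87 for Fcer1g (1.0e-07). It was -0.69 for both Tyrobp and Syk (limma adjusted p = 2.9e-05 and 4.8e-07) and -0.67 for Fcgr2b (0.00015). The smallest gap, -0.27 for Fcgr3 (limma adjusted p = 0.012), was not called without WT library 1 of C2 (adjusted p = 0.053) or WT library 3 of C2 (adjusted p = 0.059). The same WT libraries serve as the controls of the dKO comparisons, so a high level in C1 WT cells enters both.

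LAPS cells were compared with dKO cells of the same clone, which carry the vector without LAP*. Fcgr1 had 125, 124 and 128 normalized reads in the LAPS libraries, within the 113 to 146 of the dKO libraries, and the log2 difference was -0.02 (95% interval -0.57 to 0.53, limma adjusted p = 0.99). Fcgr4 had 171, 154 and 160.5, again within the dKO range, at a difference of 0.00 (95% interval -0.45 to 0.45, limma adjusted p = 1). Both stayed below the C1 WT level, with log2 differences of -2.76 for Fcgr1 (limma adjusted p = 6.4e-07) and -1.59 for Fcgr4 (2.3e-05).

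Of the other genes, Fcer1g and Syk moved further from the WT level. Fcer1g had 1772, 1812 and 1952 normalized reads in LAPS cells, below every dKO and WT library of C1, and fell, at -0.41 against dKO (SE 0.07, limma adjusted p = 0.0042) and -0.75 against WT cells (adjusted p = 9.0e-07). Syk had 2598, 2237 and 2439, also below every dKO and WT library of C1, at -0.26 against dKO (limma adjusted p = 0.036) and -0.70 against WT cells (adjusted p = 6.8e-07). Fcgr2b had 1927, 2051 and 1724, below the dKO range and within the WT range, at -0.43 against dKO (limma adjusted p = 0.038) and 0.05 against WT cells (adjusted p = 0.77). Without the filter on low values, neither Fcgr2b (adjusted p = 0.056) nor Syk (0.073) was called against dKO. Fcgr2b was also lost without any single dKO or LAPS library of C1 (adjusted p = 0.056 to 0.17) or dKO library 3 of C2 (0.054). Syk was lost without dKO library 1, 2 or 3 of C1, LAPS library 2 or 3 or WT library 3 of C2 (adjusted p = 0.052 to 0.15) and in a fit of the groups compared alone (0.10). Fcer1g alone was called without dKO library 1, 2 or 3 of C1 or LAPS library 2 or 3, and its adjusted p did not exceed 0.027 in any setting tried.

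Fcgr3 had 2946, 2456 and 2764 normalized reads in LAPS cells and Tyrobp 5496, 4241 and 4906. Neither passed the test against dKO (log2 differences -0.22 and -0.28, limma adjusted p = 0.14 and 0.12) or against WT cells (0.15 and 0.18, adjusted p = 0.16 and 0.19). Fcgr3 was called against WT after quantile normalization (0.24, limma adjusted p = 0.033). Tyrobp was called against dKO without LAPS library 1 (-0.37, limma adjusted p = 0.04999) and against WT without LAPS library 2 (0.27, adjusted p = 0.049). Trem2 had 28.4, 40.6 and 30.1, overlapping both other groups of C1 (log2 difference to dKO 0.42, 95% interval -0.49 to 1.33, limma adjusted p = 0.67; to WT -0.08, adjusted p = 0.91). In all, 3 of the 8 genes were lower and 0 higher in LAPS than in dKO cells, where 3.03% of all genes were lower and 1.43% higher. These shares stand for 384 and 181 genes, and single libraries moved them: the counts were 242 and 91 without dKO library 1 of C1, 199 and 79 without dKO library 2 of C1, 224 and 142 without dKO library 3 of C1, 222 and 75 without LAPS library 2 and 196 and 80 without LAPS library 3. Against WT cells 4 were lower (Fcgr1, Fcgr4, Fcer1g and Syk) and 0 higher, beside 18.3% and 14.2% of all genes. All LAPS results rest on C1, and both comparisons share the LAPS libraries.

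Fcgr2b, Fcgr4, Fcgr3 and Fcer1g lie within 275.7 kb of chromosome 1, in this order, and did not move as a block. In C1 the outer gene Fcgr2b rose, Fcgr4 fell, Fcgr3 rose and Fcer1g fell, so that neighbours alternated in direction. In C2 Fcgr2b, Fcgr3 and Fcer1g rose and Fcgr4 did not pass the test. Of the other tested genes in between, Pcp4l1 rose in both clones (1.89 and 1.90 on the log2 scale, limma adjusted p = 0.0018 and 0.0017) from a low level, at most 14.7 normalized reads. Sdhc, a subunit of succinate dehydrogenase, rose by 0.59 in C2 (limma adjusted p = 3.1e-06) and had a log2 difference of -0.03 in C1 (adjusted p = 0.77). Tomm40l rose by 0.49 and Cfap126 by 1.44 in C2 (limma adjusted p = 0.0065 and 0.012), with 0.23 and 0.30 in C1 (adjusted p = 0.18 and 0.61). Fcgr1, on chromosome 3, lies apart from the cluster.

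**Figure D4:**
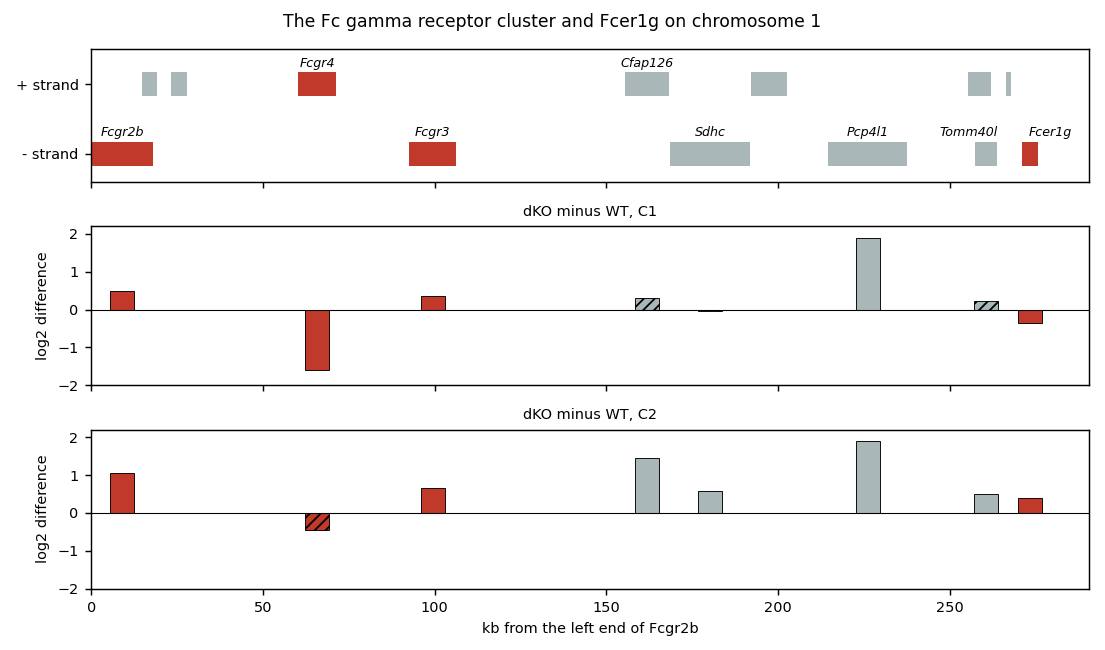
Genes between Fcgr2b and Fcer1g on chromosome 1 by distance from the left end of Fcgr2b (kb) and strand, with the log2 difference between dKO and WT cells in C1 and C2 for the genes tested; red marks Fc receptor genes and Fcer1g, hatching an adjusted p above 0.05. Fcgr4 lay between Fcgr2b and Fcgr3 and had negative values in both clones (-1.59 and -0.45) while its neighbours had positive ones.

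Across the 15 libraries, levels of the 8 genes followed each other unevenly, as described by Pearson's r of log2(normalized reads + 1), where libraries share clone and genotype. The highest values were 0.91 for Fcgr2b and Fcgr3, 0.87 for Fcgr4 and Syk and 0.87 for Fcer1g and Syk, and the lowest was -0.34 for Fcgr3 and Fcgr4. The genes most like each member by the same measure were Vim (0.98) and Nrg4 (0.97) for Fcgr1, Slc15a3 (0.98) and Tdrd7 (0.97) for Fcgr4, Stx3 (0.94) and Olfm4 (0.93) for Fcgr3, and Izumo4 (0.95) and Abca7 (0.93) for Fcgr2b. For Fcer1g they were Naaa (0.95) and C3 (0.93), for Tyrobp Arhgap4 and Rcbtb2 (both 0.97), for Trem2 Scamp5 and Pdgfa (both 0.98) and for Syk Pilrb1 (0.96) and Xkr6 (0.95). Slc15a3, a lysosomal histidine transporter, shared the drop of Fcgr4 from C1 WT cells, with a mean of 1253 normalized reads there and 11.1 to 30.6 in the other 4 groups. The intermediate filament gene Vim had means of 16881 in C1 WT and 5423 in C2 WT cells and lay in between in the other groups.

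The wider pathway was read from 7 lists with 101 genes, of which 75 passed the filter. In the dKO cells of C1, 18 of these rose and 27 fell, beside 17.1% and 19.9% of all genes tested. In C2 20 rose and 23 fell, beside 17.4% and 20.1%, and the counts by list that follow stand against the same shares. The median log2 differences were -0.17 and -0.13. Of 12 tested receptors that pair with Fcer1g or Tyrobp, 0 rose and 7 fell in C1, and 3 rose and 5 fell in C2. Clec4n (Dectin-2) fell (log2 differences -2.19 and -2.11, limma adjusted p = 0.00042 and 0.00060) and Clec4d (MCL) fell likewise (-1.73 and -1.37, adjusted p = 2.4e-06 and 3.3e-05), both C-type lectins that use Fcer1g. The activating paired immunoglobulin-like receptor Pira6 fell by 1.31 in C1 (limma adjusted p = 0.011) and rose by 2.15 in C2 (adjusted p = 0.00026), and Pira2 rose by 2.06 in C2 (adjusted p = 0.00012) with -0.27 in C1 (adjusted p = 0.56). Genes of the Pira family are near copies of each other. Reads that aligned to more than 1 place were counted in a row of their own, so these values are uncertain.

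Of 5 tested other Fc receptors, 3 rose and 2 fell in C1 and 0 rose and 2 fell in C2, and the 5 calls in C1 became 3 without dKO library 1 or 3 of C1. Fcgrt, the neonatal Fc receptor that recycles IgG, fell in both clones (log2 differences -1.94 and -2.32, limma adjusted p = 0.0011 and 0.00024). Ms4a2, the β chain of the IgE receptor, rose by 1.06 in C1 (limma adjusted p = 0.019) and fell by 2.85 in C2 (adjusted p = 5.9e-06). Trim21, a cytosolic Fc receptor, fell by 1.12 in C1 (limma adjusted p = 0.00085), with 0.04 in C2 (adjusted p = 0.91). Of 3 tested ITAM and related chains, 0 rose and 1 fell in C1 and 0 rose and 2 fell in C2, where 1 was called without WT library 1 or 3 or dKO library 2 or 3 of C2, in the groups compared alone and after quantile normalization. Cd79b, the Igβ chain of the B cell receptor, fell (log2 differences -6.09 and -3.52, limma adjusted p = 2.6e-07 and 8.1e-05), to means of 0.757 and 1.69 normalized reads.

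Of 8 tested Src and Syk family kinases and their regulators, 1 rose and 2 fell in C1, and 3 rose and 2 fell in C2. Lyn, which phosphorylates both ITAMs and inhibitory motifs, fell (log2 differences -0.48 and -0.50, limma adjusted p = 0.00087 and 0.00062). Fgr rose by 1.11 and 1.60 (limma adjusted p = 0.0073 and 0.00046). Fyn fell by 3.26 in C2 (limma adjusted p = 7.7e-05) and was at 3.01 to 4.05 normalized reads on average in C1.

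Of 22 tested signalling proteins below Syk, 7 rose and 5 fell in C1, and 7 rose and 6 fell in C2. Card9, the adaptor between Syk and NF-κB, rose by 0.55 and 0.29 (limma adjusted p = 0.00012 and 0.015) and the phospholipase Plcg2 by 0.29 and 0.54 (adjusted p = 0.0039 and 2.1e-05). The adaptor Lcp2 (SLP-76) fell (log2 differences -0.55 and -0.93, limma adjusted p = 0.0028 and 3.3e-05) and so did Pik3ap1 (BCAP; -0.63 and -0.53, adjusted p = 0.00086 and 0.0036). Lat2 rose by 1.45 in C1 (limma adjusted p = 1.6e-05) and fell by 1.50 in C2 (adjusted p = 1.3e-05), while Plcg1 fell by 1.29 in C2 (adjusted p = 8.5e-07) with 0.22 in C1 (adjusted p = 0.18).

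On the inhibitory side, 2 of 12 tested receptors rose and 5 fell in C1, and 3 rose and 4 fell in C2. Pilra fell (log2 differences -1.50 and -0.67, limma adjusted p = 1.0e-06 and 0.0022) and so did Clec12a (-0.40 and -0.79, adjusted p = 0.0063 and 2.0e-05). Clec4a2 rose by 3.16 in C2 (limma adjusted p = 5.9e-06) with 0.35 in C1 (adjusted p = 0.49), and Siglece fell by 0.73 in C1 (adjusted p = 0.0030) and rose by 1.21 in C2 (adjusted p = 3.7e-05). Of 13 inhibitory phosphatases and adaptors, 5 rose and 5 fell in C1, and 4 rose and 2 fell in C2. In a fit of the groups compared alone, 6 in all were called in C1. Inppl1, encoding the lipid phosphatase SHIP2, fell (log2 differences -2.64 and -0.998, limma adjusted p = 5.2e-09 and 0.00018). Sla and Sla2, adaptors that dampen receptor signals, rose by 0.25 and 3.31 in C1 (limma adjusted p = 0.028 and 0.00015) and by 0.35 and 1.68 in C2 (adjusted p = 0.0035 and 0.022). Dok2 rose by 0.88 in C1 (limma adjusted p = 0.00018), with -0.37 in C2 (adjusted p = 0.057).

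**Figure D5:**
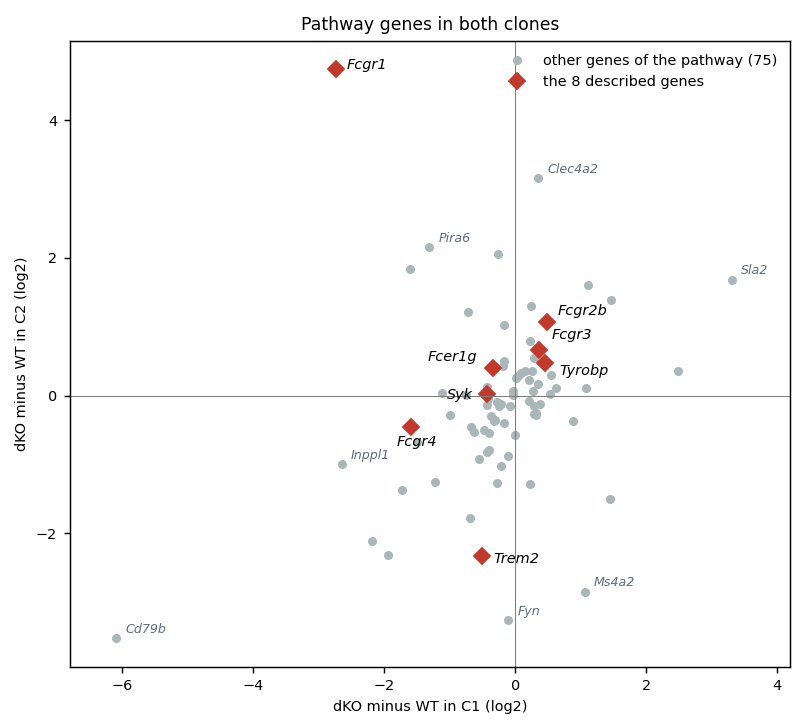
Log2 difference between dKO and WT cells in C1 (horizontal) and C2 (vertical) for the 8 genes (red) and the 75 other tested genes of the pathway (grey). Fcgr1 (-2.74 and 4.74) lay in the same quadrant as Pira6 (-1.31 and 2.15), lower in C1 and higher in C2.

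In LAPS against dKO cells, 1 of the 75 pathway genes rose and 8 fell, beside 1.43% and 3.03% of all genes tested. Inppl1 rose by 0.83 (limma adjusted p = 0.0082). Among those that fell were Fgr (log2 difference -1.41, limma adjusted p = 0.012), the adhesion receptor Pecam1 (-1.33, adjusted p = 0.0012), the DAP10 adaptor Hcst (-0.67, adjusted p = 0.023) and Bcl10 (-0.26, adjusted p = 0.040). By list, 0 rose and 3 fell of the inhibitory receptors, 1 rose and 2 fell of the inhibitory phosphatases and adaptors, 0 rose and 1 fell each of the ITAM chains, the kinases and the signalling proteins below Syk. These counts moved when single libraries were left out and in some of the other alternatives. The inhibitory receptors had 1 call without dKO library 1, 2 or 3 of C1 or LAPS library 3 and 5 without WT library 2 or 3 of C1 or WT library 1 of C2, and the inhibitory phosphatases and adaptors had 1 without dKO library 2 of C1 or LAPS library 3. Hcst was not called without dKO library 1 or 2 of C1 or LAPS library 2 or 3. The kinases had 0 calls without dKO library 3 of C1 or LAPS library 3. They had 2 without WT library 3 of C1 or WT library 1 or 2 of C2. They also had 2 with a pseudocount of 5, after quantile normalization, in the groups compared alone, in edgeR and in DESeq2. DESeq2 gave 5 calls for the inhibitory receptors and 2 for the signalling proteins below Syk. The groups compared alone gave 1 for the inhibitory phosphatases and adaptors. Bcl10 was not called without the filter, in the groups compared alone or with the replicate number as a block. It was also lost without WT library 1 or dKO library 1, 2 or 3 of C1, or without LAPS library 2 or 3. The same held without WT library 2 or 3 or dKO library 1 or 3 of C2. The smallest adjusted p among the other Fc receptors and the paired receptors was 0.093, for Pilrb1.

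Markers of other cell types also differed between the groups, and not alike in the 2 clones. The summed normalized reads of 8 monocyte and macrophage markers were 30612 to 42603 in C1 WT libraries, 20242 to 23398 in C1 dKO, 20663 to 23276 in LAPS, 18121 to 19712 in C2 WT and 13751 to 16078 in C2 dKO libraries. In C1 0 of the 7 tested rose and 7 fell, beside 17.1% and 19.9% of all genes. In C2 1 rose and 4 fell, beside 17.4% and 20.1%. The one that rose was Adgre1, the macrophage antigen F4/80, chosen here after its values were seen: like Fcgr1 it fell in C1 (log2 difference -0.66, limma adjusted p = 0.032), rose in C2 (2.30, adjusted p = 1.1e-06) and was lower in C2 WT than in C1 WT cells (-3.20). Most of the summed reads came from Ly6c2. The 7 neutrophil markers summed to 20724 to 27481 in C1 WT, 77484 to 98548 in C1 dKO, 32629 to 37468 in LAPS, 44483 to 78177 in C2 WT and 49382 to 76529 in C2 dKO libraries. In the dKO cells, 7 rose and 0 fell in C1, and 2 rose and 1 fell in C2, where the WT and dKO sums overlapped. The 5 eosinophil markers summed to 98.8 to 123 in C1 WT, 7633 to 14247 in C1 dKO, 969 to 1933 in LAPS, 13.6 to 20.9 in C2 WT and 258 to 355 in C2 dKO libraries. Of the 8 mast cell and basophil markers, Tpsb2, Fcer1a and Cma1 were at or near 0. The 8 together summed to 937 to 1261 in C1 WT, 3852 to 4381 in C1 dKO and 2072 to 2262 in LAPS libraries. In C2 the sums were 458 to 502 in WT and 2466 to 2644 in dKO libraries. Kit gave the largest part, with means of 999, 2268, 1713, 307 and 1376 in the same order. The study uses its protein, c-Kit, to mark stem and early progenitor cells. Markers of T and NK cells summed to at most 2.76, those of erythroid cells and megakaryocytes to 275 and those of fibroblasts and liver to 176, and the B cell markers to 93.5 to 2898, nearly all from Ighm. The part of these shifts in the values of the 8 genes was not tested.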

How the data were processed

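RNA-seq was analysed in 15 libraries of 5 groups (TruSeq stranded mRNA, paired-end 76 nt). The authors aligned reads to mm10 with STAR 2.5.3a, counted them with HTSeq 0.10.0 and deposited a normalized signal, the counts divided by DESeq2 1.26.0 size factors. The gene annotation and strand setting are not given in the sources used here. The deposited signal gave whole reads within 0.1 read for at least 99.98% of values, and library size factors ran from 0.747 to 1.13. Rows for reads not assigned to a gene (22.4% to 26.2% of reads) were not used here. Most of these reads, 17.1% to 19.6% of all, aligned to more than 1 place. The 3 columns headed as LAPS of C2, which match no listed sample, were not used either. limma 3.58.1 (R 4.3.3) modelled log2(normalized reads + 1) in the 15 libraries together, each group having its own mean, with Benjamini-Hochberg adjustment over 12673 genes. Calls required an adjusted p under 0.05, and log2 differences of low genes are understated by the pseudocount. Alternatives were pseudocounts of 0.1 and 5, no filter, quantile normalization, the groups compared alone, a replicate block, edgeR 4.0.16 and DESeq2 1.42.0 on recovered reads, and each library left out. The fits were tested on simulated data. Positions come from GENCODE vM21. The 8 genes and all lists were chosen with earlier results of these data known. Besides the 8 genes, the text names the 2 genes most correlated with each and, from each pathway list, up to 2 with the largest mean rise and fall among those called alike in both clones, up to 2 with the largest called difference between clones, and the one with the largest called change in LAPS against dKO. Some genes that this rule names are not reported here. Counting intervals and floors cover counting error only.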

Additional observations from a re-analysis of the deposited data

Results flagged for a closer look

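The change from WT to dKO cells differed between clones C1 and C2 by limma's test of the difference itself in 6 of the 8 genes, 5 higher and 1 lower in C2, where 15.1% of all genes tested were higher and 14.3% lower. The difference (C2 minus C1, log2) was 7.48 for Fcgr1, 1.14 for Fcgr4, 0.75 for Fcer1g and 0.58 for Fcgr2b. It was 0.46 for Syk and -1.82 for Trem2. Over the alternative settings the Fcgr1 value ran from 6.07 to 8.35 and the Trem2 value from -4.06 to -0.55. Fcgr1 and Fcer1g had opposite directions, Fcgr2b rose in both, and the other genes passed the test in 1 clone. Each clone has 1 WT and 1 dKO line, so the clone, the mouse it came from and the surviving dKO line cannot be told apart.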

How the results depend on the processing

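Of 384 values of single genes under the 8 alternatives, 369 kept direction and call, 9 lost the call, 3 gained it and 3 changed sign. Of 720 values with a single library left out, these numbers were 676, 21, 9 and 14. Of the counts of called genes in the pathway lists, 900 stayed within 1.5 times and 66 did not. The count of the 8 genes called in LAPS against dKO cells was 3, and 1 without the filter on low values, which adds genes to the adjustment. With single libraries left out, it ran from 1 to 3, against 7 to 7 for dKO in C1, 6 to 7 for dKO in C2, 5 to 7 for the difference between clones (4 after quantile normalization), 4 to 5 for LAPS against WT and 7 to 8 between WT lines.

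All values that changed sign belonged to differences that were not called. Quantile normalization gave -0.11 for the clone difference of Tyrobp and 0.0068 for Fcgr1 in LAPS against dKO, and DESeq2 gave -0.0015 for Fcgr4 there. With single libraries left out, Syk in C2 ran from -0.0036 to 0.054, the clone difference of Tyrobp from -0.055 to 0.10, Fcgr1 from -0.11 to 0.073 and Fcgr4 from -0.065 to 0.051 in LAPS against dKO, and Fcgr2b from -0.023 to 0.18 and Trem2 from -0.38 to 0.082 in LAPS against WT. The cause was not tested.

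No pairing by replicate number was seen in the deviations of the libraries from their group means. Their correlations ran from -0.32 to 0.30 in 30 same-number pairs and from -0.25 to 0.33 in 60 other pairs. Of 15 libraries, 6 deviated most like one of their own number. These values cannot show whether the lines shared their time points. With the number as a block, 7, 6, 6, 2, 4 and 8 of the 8 genes were called in dKO C1, dKO C2, the clone difference, LAPS against dKO, LAPS against WT and between WT lines, where Syk in LAPS against dKO was lost (adjusted p = 0.060).

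Quantile normalization moved the split of all genes called in C1 from 2170 higher and 2516 lower to 2681 and 2052, in LAPS against WT from 1796 and 2322 to 2521 and 1910, in dKO of C2 from 2211 and 2549 to 2416 and 2289, between WT lines from 2493 and 2699 to 2886 and 2378, and for the clone difference from 1910 and 1810 to 1752 and 1923. Depth limits Fcgr1 in C2 WT cells (4 reads) and Trem2 in C2 dKO cells (1 read).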
